A study of Homo sapiens with 12 samples.

Results

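The nuclear genes for the subunits of the mitochondrial respiratory chain were followed in the established Ewing sarcoma cell line TC71 after raising or inhibiting the microRNA miR-130b. Members were the genes whose current symbol on the array names a subunit of complex I (NDUFA, NDUFB, NDUFC, NDUFS or NDUFV and a number), complex II (SDHA to SDHD), complex III (UQCR), complex IV (COX4 to COX8) or complex V (ATP5). The array listed 83 such symbols. The 2 pseudogenes UQCRBP1 and ATP5F1EP2 were left out, which gave 81 members, and 73 of them were tested because a probe was detected on at least 4 of 12 arrays. They made up 73 of the 11835 genes tested. All 3 groups were TC71 cells collected at 48 h and differed only in the miR-130b reagent: a scrambled control, a mimic that adds miR-130b, or an anti-miR that inhibits it, with 4 arrays in each. How the reagents were delivered and which chemical kind the anti-miR was are not in the labels, and whether a group's 4 arrays stem from separate cultures is not given. The p-values therefore measure the spread between these samples, which may be technical.

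The respiratory chain sits in the inner mitochondrial membrane. Complex I takes electrons from NADH and complex II from succinate, ubiquinone carries them to complex III, cytochrome c carries them on to complex IV, which reduces oxygen, and complex V (ATP synthase) uses the proton gradient to make ATP. Most subunits are encoded in the nucleus and imported, while a core set is encoded by mitochondrial DNA, and nuclear respiratory factor NRF1 and the ETS-family factor GABP are known to drive many of the nuclear genes. A microRNA acts mainly by pairing its seed with sites in messenger RNAs, which lowers their stability and translation.

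The mature sequence of the 3p arm is shown because its seed is the part of miR-130b that pairs with target messenger RNAs. Bases 2 to 8, the seed, are in capitals. The labels name miR-130b without an arm. The sequence is RefSeq's, at chr22:21653354-21653375 on the plus strand of GRCh38.p14.
hsa-miR-130b-3p: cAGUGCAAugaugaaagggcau

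The arrays were alike in depth. Between 19008 and 20544 probes were detected per array, and arrays of a group correlated at 0.990 to 0.994 across the genes tested. Of 10 markers of Ewing sarcoma, 9 had a probe on the array, and all 9 were detected on all 12 arrays. Markers of endothelium (PECAM1, VWF, CDH5, KDR) and muscle (MYH7, ACTA1, CKM, MB) were detected on 0 arrays, as were KRT5, KRT14 and CDH1 of epithelium and PTPRC and CD3E of blood cells. EPCAM was detected on 10 arrays and CD14 on 9, both close to background at group means between 5.27 and 5.53 log2 intensity, and neither was called in any comparison. Values below are log2 intensities after background correction and quantile normalization, so each difference is relative to all genes on the array. In bulk RNA, fewer cells and less RNA per cell cannot be told apart.

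Of the 81 members, 33 of 35 were tested for complex I, 3 of 3 for complex II, 8 of 8 for complex III, 11 of 17 for complex IV and 18 of 18 for complex V. The 8 members that were not tested were NDUFA5, detected on 3 arrays, and NDUFS6, COX4I2, COX6A2, COX6B2, COX7A1, COX7B2 and COX8C, detected on 0 arrays. The complex IV genes among them are tissue-restricted isoforms: COX6A2 and COX7A1 are the heart and muscle forms, COX6B2, COX7B2 and COX8C are testis forms, and COX4I2 is best known from lung. Their widely expressed counterparts COX4I1, COX6A1, COX6B1, COX7A2, COX7B and COX8A were detected on all 12 arrays. Of the 73 members tested, 72 were detected on all 12 arrays. The exception was NDUFC2, detected on 3 scramble, 4 mimic and 1 anti-miR arrays. SDHB and UQCRFS1, subunits of complexes II and III whose symbols fit the rule, were not analysed here, so that 3 of 3 and 8 of 8 count the others. NDUFA4 and the subunits encoded by mitochondrial DNA were not analysed here either.

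With either reagent, the means of the 5 complexes differed from scramble by at most 0.17 in size on the log2 scale. The largest difference was that of complex II with the mimic, which rests on 3 tested subunits and has a wide interval (below). With the mimic, the mean over a complex's tested subunits differed from scramble by -0.01 for complex I, -0.17 for complex II, 0.05 for complex III, -0.07 for complex IV and 0.01 for complex V on the log2 scale (4 arrays against 4). With the anti-miR the differences were 0.01, -0.07, 0.04, 0.00 and -0.00 in the same order. In each case the arrays of the groups overlapped.

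The complex I mean was 10.88, 10.95, 10.96 and 11.03 on the scramble arrays, 10.89, 10.96, 10.98 and 10.94 on the mimic arrays, and 10.94, 11.03, 10.98 and 10.92 on the anti-miR arrays. The complex IV mean was 12.65, 12.68, 12.80 and 12.87 with scramble, 12.60, 12.74, 12.73 and 12.65 with the mimic, and 12.69, 12.88, 12.77 and 12.68 with the anti-miR. The complex V mean was 12.02, 12.04, 12.16 and 12.24 with scramble, 12.07, 12.13, 12.18 and 12.12 with the mimic, and 12.04, 12.20, 12.18 and 12.03 with the anti-miR. Scramble replicates 3 and 4 were the highest of their group for each of these complexes, and scramble replicate 1 the lowest, so the complexes went up and down together from array to array. The mean over all 73 members ran from 11.40 to 11.60 among the scramble arrays, a range wider than any difference between group means, which were 11.49 ± 0.09 for scramble, 11.48 ± 0.05 for the mimic and 11.50 ± 0.07 for the anti-miR (SD, n = 4). The median raw intensity of the member probes, before any normalization, was 4150.2 to 4804.3 on scramble, 3672.7 to 4522.7 on mimic and 3638 to 4830.6 on anti-miR arrays, which also overlapped.

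**Figure D1:**
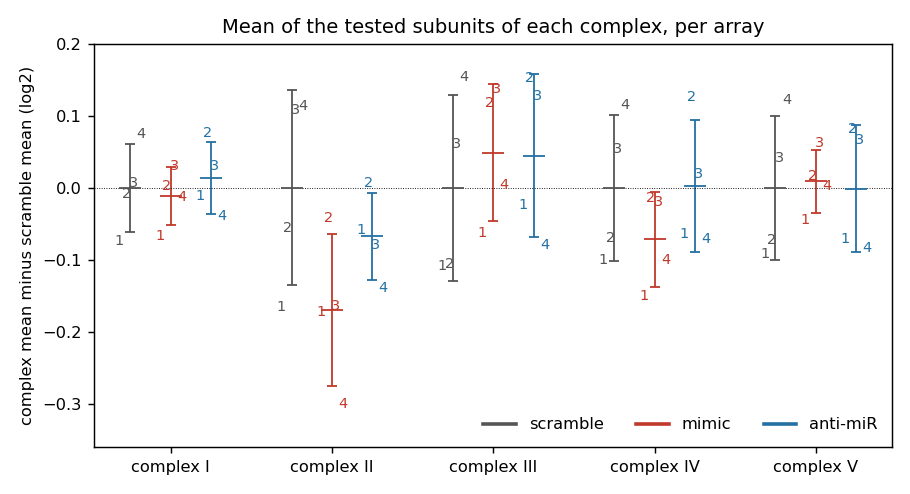
Mean log2 intensity of the tested subunits of each complex on each array, as the difference from the scramble mean of that complex (vertical axis, log2). Digits are replicate numbers, horizontal ticks are group means and bars are ± 1 SD over 4 arrays. Groups overlap for every complex, and scramble replicates 3 and 4 lie above scramble replicate 1 throughout.

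How small a shift these arrays could have missed was read from exact intervals. Each interval holds the shifts under which the groups of 4 arrays would still overlap, found by inverting the exact two-sided permutation test over the 70 splits of 8 arrays, whose smallest p is 0.0286, so that its confidence is 97.1%. Complex I had the narrowest interval for the mimic against scramble, -0.14 to 0.10, and falls of over 9.34% or rises of over 7.41% in its mean lay outside it. For complex V the interval was -0.17 to 0.15, so that falls of over 11.0% and rises of over 11.2% lay outside. Complex IV gave -0.27 to 0.09, or a fall of 16.8% to a rise of 6.08%. Complex III gave -0.22 to 0.24, or a fall of 14.0% to a rise of 18.5%. Complex II, with 3 tested subunits, had the widest, -0.41 to 0.12, which still holds a fall of 24.9% and a rise of 9.01%. Over all 73 members the interval ran from -0.18 to 0.12, a fall of 11.8% to a rise of 8.93%.

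For the anti-miR against scramble, shifts in the mean outside a fall of 7.59% and a rise of 11.0% lay beyond the interval for complex I. The limits were a fall of 16.1% and a rise of 12.7% for complex II, 14.9% and 19.9% for complex III, 12.1% and 17.0% for complex IV, and 13.3% and 12.8% for complex V. Mimic against anti-miR gave a fall of 9.44% to a rise of 4.86% for complex I, 19.2% to 7.03% for complex II, 13.9% to 16.1% for complex III, 17.5% to 3.99% for complex IV and 8.46% to 10.6% for complex V. The mimic and the anti-miR were each compared with the same scramble arrays, so these results are not independent. None of the 15 intervals, which are not adjusted for their number, left out 0. The limits hold for the mean of a complex's measured subunits and for messenger RNA, not for each subunit.

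**Figure D2:**
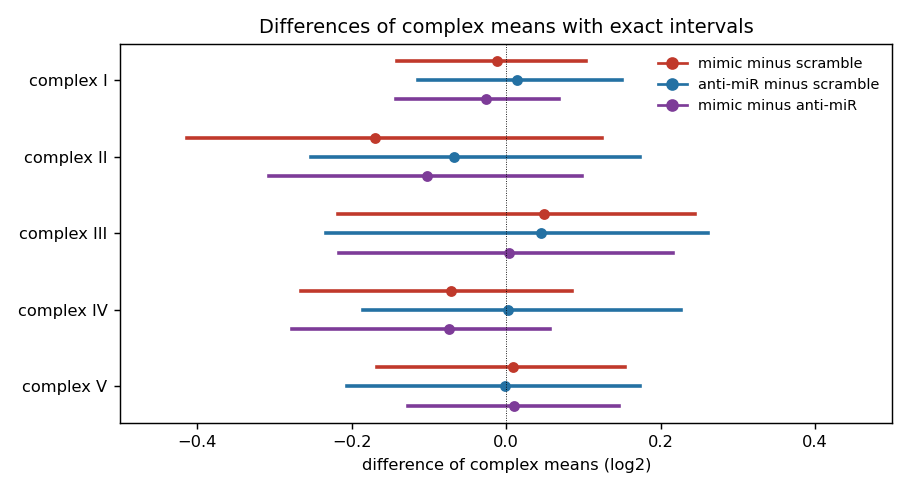
Difference of the complex mean between groups (horizontal axis, log2) for 3 comparisons and 5 complexes. Points are differences of group means and lines are exact 97.1% intervals from 4 against 4 arrays. Every line crosses 0, and complex II has the widest line for mimic minus scramble, from -0.41 to 0.12.

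A statistic chosen after earlier values had been seen takes out what the complexes share on an array. The complex IV mean minus the mean of the other 4 complex means was 1.65, 1.63, 1.64 and 1.64 on the scramble arrays, 1.58, 1.60, 1.60 and 1.62 on the mimic arrays, and 1.62, 1.69, 1.62 and 1.65 on the anti-miR arrays. Its level depends on how bright the probes are, so that only its change between arrays can be read. All mimic arrays lay below all scramble arrays. The difference was -0.04 (exact interval -0.07 to -0.02) for mimic against scramble, 0.01 for anti-miR against scramble and -0.05 (-0.11 to -0.00) for mimic against anti-miR. With median scaling in place of quantile normalization the difference from scramble was -0.06, and with no filter on detection it was -0.02. The same contrast with scramble gave 0.03 for complex I, -0.16 (-0.34 to 0.00) for complex II, 0.11 (-0.00 to 0.22) for complex III and 0.06 for complex V. These 15 intervals are unadjusted too, and those of complex IV for the mimic were the only ones that left out 0. The complex III values for the mimic against scramble, here and above, rest on the brightest probe of each gene, as described below.

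Gene by gene, 2 of the 73 subunits were called for the mimic against scramble at a Benjamini-Hochberg adjusted p under 0.05 in limma, 1 higher (NDUFB1) and 1 lower (NDUFA7). That is 2.74% of the members, where 16.2% of all genes tested were called (7.44% higher and 8.77% lower). At an unadjusted p under 0.05 the counts were 8 of 73, or 11%, against 32.4% of all genes. Arrays of the groups did not overlap for 9 members, 3 higher (NDUFA9, NDUFB1, ATP5MC3; 10.4% of all genes) and 6 lower (NDUFA3, NDUFA7, NDUFB10, SDHD, UQCRC2, COX6A1; 10.6% of all genes), or 12.3% against 21% in either direction. The median difference was -0.03 over the 73 members, from -0.57 to 0.47, and -0.00 over all genes, and 33 of 73 lay above 0, or 45.2% against 49.2% of all genes. The difference between these shares was not tested. The median SD within a group was 0.118 for members and 0.160 for all genes. The members were also brighter, with means of 11.40 to 11.60 on the scramble arrays against medians of 7.85 to 7.87 over all genes. Whether a change shows as fully at such intensities was not tested.

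Both subunits called belong to complex I, and neither had several kept probes that could be compared. NDUFA7, an accessory subunit, measured 11.19, 11.24, 11.15 and 11.12 with scramble, 10.56, 10.82, 10.49 and 10.54 with the mimic, and 11.09, 11.13, 10.92 and 11.21 with the anti-miR. All 4 mimic arrays lay below all others, while scramble and anti-miR overlapped. Its mean fell by 0.57 ± 0.09 (SE) on the log2 scale, 1.49-fold, in the mimic against scramble (limma 95% interval -0.77 to -0.37, adjusted p = 0.00232). Against the anti-miR it fell by 0.49 ± 0.09 (adjusted p = 0.00467), and the anti-miR differed from scramble by -0.09 (adjusted p = 0.665). NDUFA7 was the only member called in mimic against anti-miR, where 15% of all genes were. In both comparisons it was called under all 21 settings tried, the reported one included. Some of these settings, such as the mean of a gene's probes, left the differences of NDUFA7 and NDUFB1 unchanged.

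NDUFA7 and RPS28, which encodes a ribosomal protein, start 120 bases apart on opposite strands of chromosome 19. The stretch between the starts is shown for that reason, read on the strand of NDUFA7 (chr19:8321376-8321495, minus strand, GRCh38.p14, RefSeq).
NDUFA7 upstream: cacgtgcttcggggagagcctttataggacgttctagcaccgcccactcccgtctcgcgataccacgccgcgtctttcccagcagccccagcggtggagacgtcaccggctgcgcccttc

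The stretch holds no match to the motifs of NRF1 or ETS factors given below, and the wider window searched below holds a YY1 match. RPS28 measured -0.30 ± 0.10 (SE) in mimic against scramble (adjusted p = 0.0578), 0.05 in anti-miR against scramble (adjusted p = 0.832), and fell by 0.36 in mimic against anti-miR (adjusted p = 0.0322, limma). Whether the neighbours share a cause was not tested.

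NDUFB1, an accessory subunit of the membrane arm, measured 6.01, 6.00, 6.11 and 6.45 with scramble, 6.55, 6.50, 6.80 and 6.61 with the mimic, and 6.56, 6.56, 6.44 and 6.57 with the anti-miR. The highest scramble array lay just under the lowest mimic array and inside the anti-miR range. NDUFB1 rose by 0.47 ± 0.11 (SE), 1.39-fold, in the mimic (limma 95% interval 0.25 to 0.70, adjusted p = 0.0102). It was called under all 21 settings at differences of 0.28 to 0.59, the smallest with no background correction. Its values were dim, against scramble medians of 7.85 to 7.87 over all genes. The anti-miR differed from scramble in the same direction, by 0.39 ± 0.11 (adjusted p = 0.117), and mimic and anti-miR differed by 0.08 (adjusted p = 0.642). Its upstream stretch (chr14:92121707-92121826, minus strand, GRCh38.p14, RefSeq) is shown beside that of NDUFA7 because these are the subunits called, and it too holds no NRF1 or ETS match.
NDUFB1 upstream: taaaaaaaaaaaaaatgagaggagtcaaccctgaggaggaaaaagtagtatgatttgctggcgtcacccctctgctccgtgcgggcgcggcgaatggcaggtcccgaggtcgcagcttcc

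The core electron-transfer subunits of complex I that were tested by name, NDUFV1 and NDUFS1, were not called. NDUFV1, which holds the flavin that takes electrons from NADH, measured 11.17, 11.24, 11.13 and 11.25 with scramble, 10.86, 11.04, 11.20 and 10.82 with the mimic, and 11.16, 11.05, 11.13 and 11.09 with the anti-miR. Mimic replicate 3 lay within the scramble range, and the difference of -0.21 ± 0.09 (SE) had an adjusted p of 0.115. NDUFS1, the largest iron-sulfur subunit, differed by -0.03 ± 0.08 in mimic against scramble (adjusted p = 0.816) and by 0.16 ± 0.08 in anti-miR against scramble (adjusted p = 0.315). NDUFB10, an accessory subunit, measured 12.41, 12.46, 12.30 and 12.34 with scramble and 11.96, 12.16, 12.19 and 12.25 with the mimic. Its groups did not overlap, but at -0.24 ± 0.08 its adjusted p was 0.0615, and it was called in 2 of 21 settings. Over complex I, 17 differences for the mimic lay above 0 and 16 below, with a median of 0.00, and 31 of 33 were not called.

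**Figure D3:**
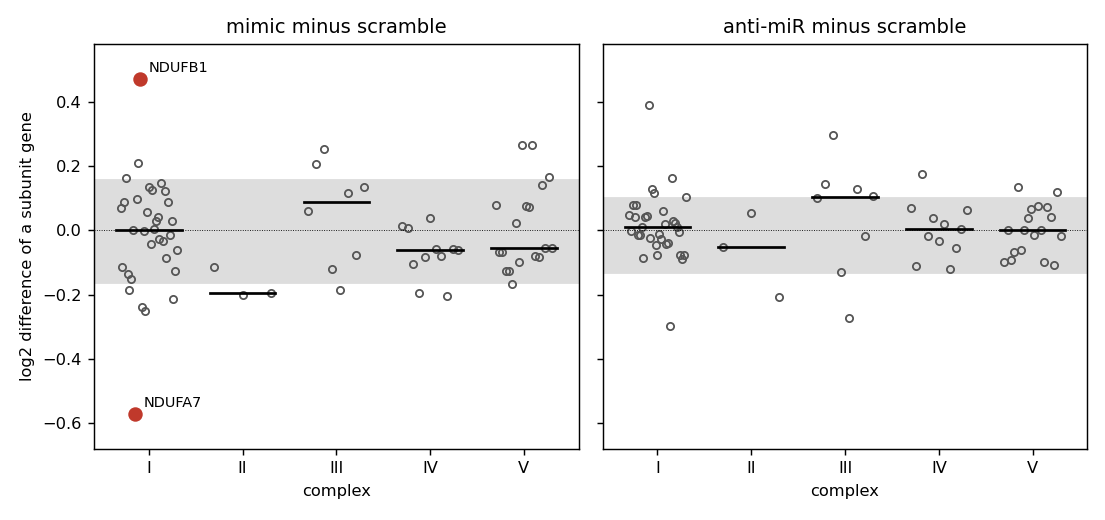
Log2 difference from scramble of each of the 73 tested subunits (1 circle each) by complex, for the mimic (left) and the anti-miR (right). Filled circles passed the adjusted threshold, black lines are complex medians, and the grey band holds the middle of all 11835 genes, from the lower to the upper quartile. NDUFA7 at -0.57 and NDUFB1 at 0.47 stand apart in the left panel, and the right panel has no filled circle.

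Complex II oxidises succinate, and its tested subunits all lay below scramble with the mimic, with no call among 3 and 0 at an unadjusted p under 0.05. SDHA, the flavoprotein, measured 10.10, 10.30, 10.32 and 10.35 with scramble and 10.13, 10.26, 10.22 and 9.99 with the mimic, a difference of -0.11 ± 0.09 (SE, adjusted p = 0.401). SDHD, a membrane anchor, measured 10.47, 10.48, 10.57 and 10.55 with scramble, 10.42, 10.46, 10.08 and 10.32 with the mimic, and 10.25, 10.47, 10.37 and 10.14 with the anti-miR. Its mimic arrays lay below its scramble arrays by a small margin, at -0.20 ± 0.10 (adjusted p = 0.187), and the anti-miR gave -0.21 ± 0.10 (adjusted p = 0.311). SDHC, the other anchor, differed by -0.20 ± 0.13 in the mimic (adjusted p = 0.298) and by 0.06 in the anti-miR at its brighter probe. In the mimic the dimmer probe of SDHC gave -0.03 and that of SDHA -0.09, neither called. SDHA has near-identical pseudogene copies, whose signal the probe may share.

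Complex III showed no call among 8 subunits and 0 at an unadjusted p under 0.05, with a median of 0.09. The core proteins lay below scramble with either reagent: UQCRC2 measured 10.44, 10.41, 10.41 and 10.31 with scramble, 10.19, 10.28, 10.27 and 10.10 with the mimic, and 10.27, 10.34, 10.00 and 9.88 with the anti-miR. The mimic difference was -0.18 ± 0.10 (SE, adjusted p = 0.225) and the anti-miR difference -0.27 ± 0.10 (adjusted p = 0.213). UQCRC1 gave -0.12 ± 0.08 and -0.13 ± 0.08 (adjusted p = 0.294 and 0.404). UQCRB, a small subunit beside the ubiquinone site, was the least certain of all members, with scramble arrays from 9.06 to 10.00 and limma intervals of -0.20 to 0.71 for the mimic and -0.16 to 0.75 for the anti-miR. Its dimmer probe gave -0.12 in the mimic, against 0.25 from the brighter probe, and neither was called. UQCR10 gave 0.06 at its brightest probe and -0.11 and -0.12 at its others, none called. Every complex III member with several kept probes, namely UQCRB, UQCR10 and UQCRH (below), had probes of opposite sign in the mimic. The positive complex III difference therefore rests on the brightest probes.

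UQCRH, the acidic hinge protein that helps dock cytochrome c, was measured by probes that disagreed. The brighter probe read 13.29, 13.35, 13.53 and 13.68 with scramble and 13.55, 13.56, 13.66 and 13.54 with the mimic, a difference of 0.12 ± 0.09 (SE, adjusted p = 0.413). The dimmer probe read 10.41, 10.13, 10.40 and 10.40 with scramble, 9.74, 9.99, 9.87 and 9.99 with the mimic, and 10.33, 10.67, 10.28 and 10.01 with the anti-miR. Every mimic array of the dimmer probe lay below every other array, and in a limma fit to all probes it fell by 0.44 ± 0.13 (adjusted p = 0.036). UQCRHL, a near-identical copy with a probe of its own, differed by -0.08 (adjusted p = 0.551). Their transcripts may bind the same probes, so UQCRH is uncertain.

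Complex IV had 8 of 11 subunits below 0 and 3 above with the mimic, a median of -0.06, no call and 1 subunit (COX6A1) at an unadjusted p under 0.05. COX4I1 and COX5A, the nuclear subunits that join the catalytic core first, each differed by 0.01 (SE 0.08 and 0.07, adjusted p = 0.924 and 0.956). The most negative were COX7B at -0.20 ± 0.14 and COX6A1 at -0.20 ± 0.09 (adjusted p = 0.348 and 0.154). COX6A1 measured 12.10, 12.09, 12.21 and 12.34 with scramble and 11.86, 12.04, 12.09 and 11.96 with the mimic. At 2 decimals its highest mimic array and its lowest scramble array both read 12.09, and unrounded the groups did not overlap. The remaining widely expressed isoforms COX6B1, COX7A2 and COX8A, and COX7A2L, a relative that helps complexes III and IV associate, differed by -0.08, -0.06, -0.06 and -0.08, none called.

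COX5B, the zinc-binding subunit, was the complex IV member furthest from 0 with the anti-miR. It measured 13.20, 13.40, 13.35 and 13.43 with scramble, 13.02, 13.33, 13.39 and 13.23 with the mimic, and 13.56, 13.47, 13.45 and 13.60 with the anti-miR. All anti-miR arrays lay above the rest. The anti-miR difference from scramble was 0.17 ± 0.09 (SE, adjusted p = 0.363), and mimic against anti-miR gave -0.28 ± 0.09 (adjusted p = 0.0583), called in 4 of 21 settings.

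Complex V had no call among 18 subunits with the mimic, 8 above 0 and 10 below, with a median of -0.05, and 2 (ATP5MC3 and ATP5MG) at an unadjusted p under 0.05. The probes of ATP5MG, a membrane subunit, gave 0.26 (brighter) and -0.22 (dimmer), neither called. The catalytic beta subunit ATP5F1B measured 14.55, 14.54, 14.50 and 14.50 with scramble, 14.56, 14.41, 14.44 and 14.40 with the mimic, and 14.49, 14.53, 14.53 and 14.54 with the anti-miR. These groups overlapped, at -0.07 ± 0.07 (SE) for the mimic (95% interval -0.22 to 0.08, adjusted p = 0.551) and -0.00 ± 0.07 for the anti-miR. The alpha subunit ATP5F1A differed by 0.08 ± 0.09 and -0.10 ± 0.09, and ATP5IF1, the protein that blocks ATP hydrolysis by the synthase, by -0.17 ± 0.09 and -0.06 ± 0.09 (adjusted p = 0.218 or above).

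The proton-carrying ring of complex V is built from a c subunit that ATP5MC1, ATP5MC2 and ATP5MC3 encode as the same mature protein behind different import sequences. ATP5MC3 measured 7.98, 8.08, 7.85 and 8.08 with scramble, 8.38, 8.21, 8.30 and 8.17 with the mimic, and 8.12, 8.04, 8.20 and 7.90 with the anti-miR. Scramble and mimic did not overlap, and the difference of 0.26 ± 0.09 (SE) had an adjusted p of 0.0603 and was called in 2 of 21 settings. ATP5MC2 differed by -0.10 ± 0.08 in the mimic at its brightest probe (adjusted p = 0.431) and by 0.32 and 0.21 at its other probes (adjusted p = 0.153 and 0.327 in the fit to all probes), so its direction is uncertain. ATP5MC1 differed by 0.02 ± 0.14 at its brighter probe, while its dimmer probe read 6.47, 6.41, 6.94 and 6.97 with scramble, 7.17, 7.03, 7.39 and 7.39 with the mimic, and 6.94, 6.41, 6.87 and 6.53 with the anti-miR. The dimmer probe rose by 0.55 ± 0.16 in the fit to all probes (adjusted p = 0.033), with all mimic arrays above the rest. The probes disagreed, so ATP5MC1 is uncertain.

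**Figure D4:**
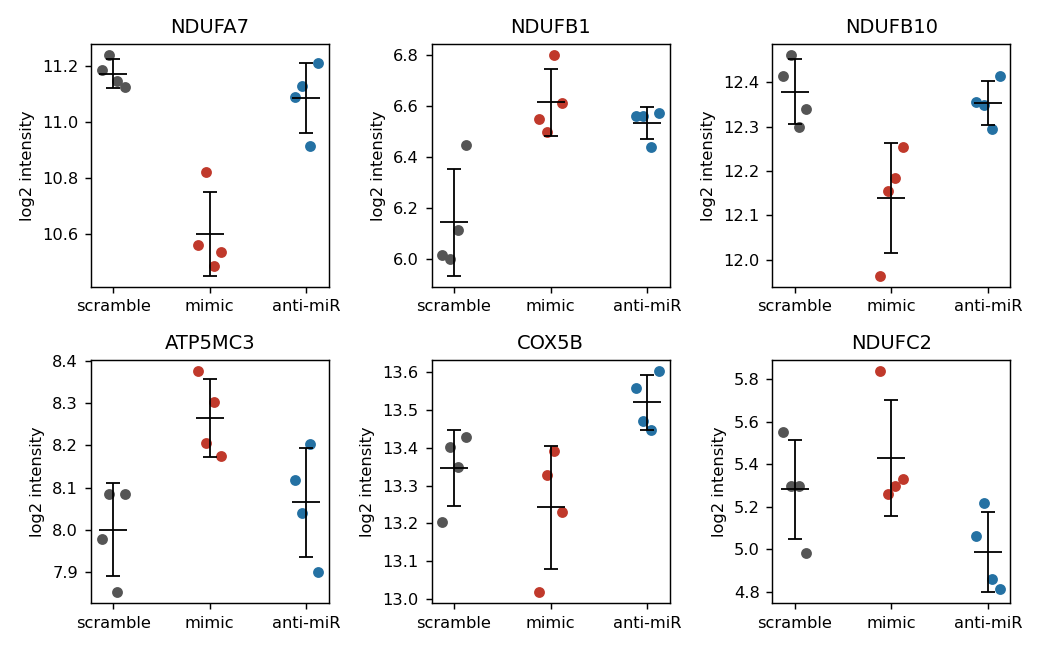
Log2 intensity of 6 subunits on each array (points), with group means and ± 1 SD (n = 4); each panel has its own vertical axis, which does not start at 0. NDUFA7 is low on all 4 mimic arrays. NDUFB1 is higher with the mimic, NDUFB10 lower and ATP5MC3 higher without overlap with scramble, COX5B is highest with the anti-miR, and NDUFC2 rests on probes near background.

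Across the 21 members with several kept probes, the probes of a gene spanned a median of 0.10 on the log2 scale for mimic against scramble, and 9 of 21 had probes of opposite sign. UQCRH had the widest span, 0.55. For anti-miR against scramble the median span was 0.13 with 13 of 21 of opposite sign.

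With the anti-miR against scramble, 0 of 73 subunits were called by limma, where 0.127% of all genes were (0.0676% higher and 0.0591% lower), and 2 members (NDUFB1 and UQCRC2) had an unadjusted p under 0.05, or 2.74% against 16.5%. Arrays did not overlap for 3 members, COX5B higher and UQCRC1 and COX5A lower, or 4.11% against 8.94% (3.5% higher and 5.44% lower). Of the 73, 38 lay above 0, or 52.1% against 46.4% of all genes. The median difference was 0.00 over members, from -0.30 (NDUFC2) to 0.39 (NDUFB1), and -0.02 over all genes. For mimic against anti-miR, 1 member was called, lower, where 7.19% of all genes were lower and 7.82% higher. Arrays did not overlap for 8 members (2 higher, 6 lower), or 11% against 20% (10.9% higher, 9.1% lower), 8 members had an unadjusted p under 0.05, or 11% against 31.1%, and 34 of 73 lay above 0, or 46.6% against 52.1%. NDUFC2, a membrane-arm subunit, measured 5.84, 5.26, 5.30 and 5.33 with the mimic and 5.06, 5.22, 4.86 and 4.81 with the anti-miR. The difference was 0.44 ± 0.15 (SE, adjusted p = 0.0546), called in 5 of 21 settings, and its probe was detected on 1 anti-miR array.

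The size of difference that single subunits could hide was limited as well. The limma 95% interval had a median half-width of 0.20 for members and 0.24 for all genes. It lay wholly within ±0.5 for 67 of 73 members in mimic against scramble, 70 in anti-miR against scramble and 66 in mimic against anti-miR, and within ±1 for all 73 in each. The exceptions for the mimic against scramble were NDUFA7, NDUFB1, NDUFB2, UQCRB, COX7B and ATP5MG. A call needed a median difference of 0.29, or 1.22-fold, in mimic against scramble (0.21 to 0.65 by member) and of 0.52, or 1.43-fold, in anti-miR against scramble (0.39 to 1.18), since fewer genes were called there. The count of 0 under the anti-miR therefore comes with a higher bar than the count of 2 under the mimic.

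Genes that serve the chain were counted beside the subunits. Of 14 tested regulators of respiratory genes, 4 rose and 1 fell with the mimic, or 35.7% against 16.2% of all genes. Their median difference was 0.15, against -0.00 over all genes. The other regulators listed, NRF1, PPARGC1A and ESRRG, had no probe that passed the detection filter and were not tested. TFAM, which packages mitochondrial DNA and activates its transcription, measured 9.48, 9.63, 9.55 and 9.67 with scramble, 10.41, 10.23, 10.27 and 10.30 with the mimic, and 9.67, 9.61, 10.04 and 9.77 with the anti-miR. All mimic arrays lay above all others, and TFAM rose by 0.72 ± 0.10 (SE, adjusted p = 0.00127). TFB1M, a methyltransferase of the mitochondrial ribosome's small-subunit RNA, measured 10.96, 11.26, 11.08 and 11.00 with scramble, 10.14, 10.61, 10.37 and 10.09 with the mimic, and 11.06, 11.15, 11.16 and 11.27 with the anti-miR. All mimic arrays lay below all others, and TFB1M fell by 0.77 ± 0.11 (adjusted p = 0.00164).

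GABPB1, the subunit through which GABP activates transcription, rose by 0.43 ± 0.10 (adjusted p = 0.0143) at its brightest probe, with 0.36 and 0.27 at its other probes. MTERF3, a negative regulator of mitochondrial transcription, rose by 0.45 ± 0.10 (adjusted p = 0.00873). These 4 calls, of TFAM, TFB1M, GABPB1 and MTERF3, held under all 19 other settings tried. PPARGC1B, a coactivator of respiratory genes, rose by 0.43 ± 0.13 (adjusted p = 0.0433) but was called in 9 of 19. GABPA, the DNA-binding subunit of GABP, differed by 0.23 ± 0.11 (adjusted p = 0.155). With the anti-miR, 0 of 14 were called by limma (1 at an unadjusted p under 0.05, or 7.14% against 16.5% of all genes), and TFAM and TFB1M differed from scramble by 0.19 and 0.09 (adjusted p = 0.352 and 0.732). Since the subunits and the regulators come from the same arrays, their values are set side by side and no relation between them was tested.

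**Figure D5:**
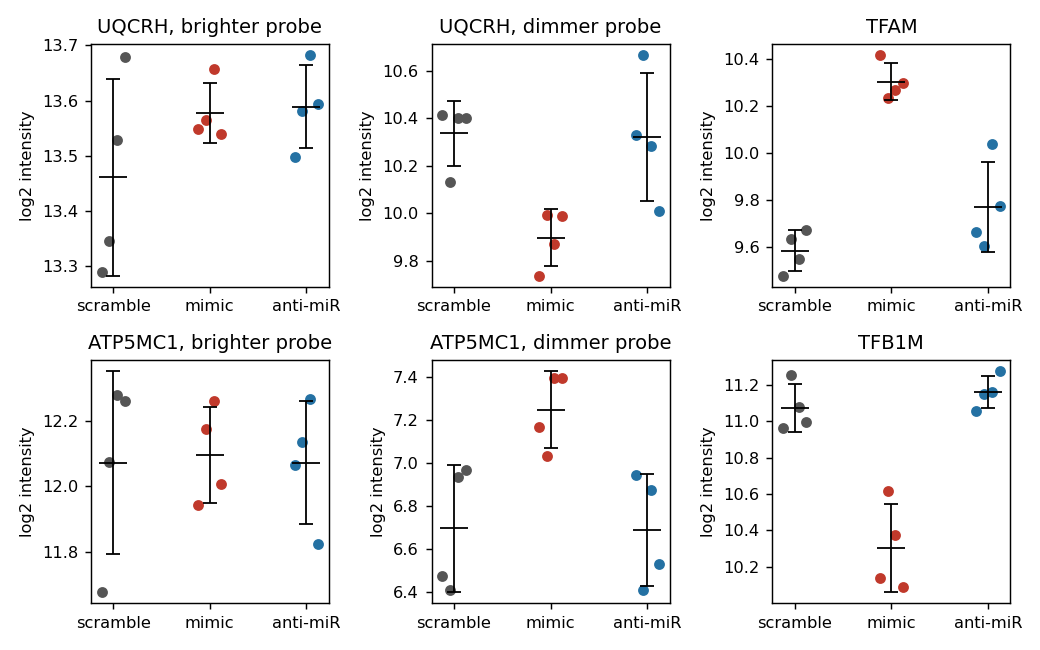
Log2 intensity on each array (points) with group means and ± 1 SD (n = 4) for the brighter and dimmer probes of UQCRH and ATP5MC1 and for the regulators TFAM and TFB1M; vertical axes differ between panels and do not start at 0. The dimmer probes separate the mimic from the other groups and the brighter ones do not. TFAM is high and TFB1M low on all 4 mimic arrays.

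Of 47 tested assembly factors, 1 rose and 4 fell with the mimic, with a median of -0.00. That is 10.6% called, below the 16.2% of all genes (7.44% higher and 8.77% lower). NDUFAF3, an assembly factor of complex I, fell by 0.47 ± 0.10 (SE, adjusted p = 0.00682) and COA8, of complex IV, by 0.45 ± 0.10 (adjusted p = 0.00858), both also under all 19 other settings. NDUFAF3 also fell by 0.48 against the anti-miR (adjusted p = 0.00655). NUBPL, which brings iron-sulfur clusters to complex I, fell by 0.33, SDHAF4, a chaperone of SDHA, fell by 0.41, and COA7, of complex IV, rose by 0.42 (adjusted p = 0.0362, 0.0454 and 0.0212), but these were called in 12, 8 and 15 of 19 other settings. With the anti-miR against scramble 0 of 47 were called, where 0.127% of all genes were, and 12 had an unadjusted p under 0.05, or 25.5% against 16.5% of all genes.

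Of 14 tested electron carriers and enzymes of ubiquinone synthesis, 1 rose and 2 fell with the mimic, or 21.4% against 16.2% of all genes. COQ8A, an atypical kinase needed for ubiquinone synthesis, fell by 0.64 ± 0.14 (SE, adjusted p = 0.00987) and kept its call in all 19 other settings. COQ9 fell by 0.29 and PDSS1, which makes the isoprenoid tail, rose by 0.27 (adjusted p = 0.0441 and 0.0499), called in 7 and 4 of 19. CYC1, the cytochrome c1 subunit of complex III, differed by -0.14 ± 0.08 (adjusted p = 0.224), and NDUFAB1, the acyl carrier subunit of complex I, by -0.04. COXFA4L2, a relative of a complex IV subunit that is known as a hypoxia target, differed by -0.80 ± 0.32 (adjusted p = 0.104). Of 13 genes of the tricarboxylic acid cycle, IDH3A rose by 0.35 and SUCLG2 fell by 0.39 (adjusted p = 0.0179 and 0.021), called in 17 and 16 of 19 other settings. That is 15.4% of the list, near the 16.2% of all genes.

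Of 12 inner membrane carriers and import proteins, 3 rose and 1 fell, with a median of 0.16, or 33.3% called against 16.2% of all genes. TIMM17A, part of the inner membrane import channel, rose by 0.55 ± 0.13 (SE, adjusted p = 0.0118) and TOMM70, an import receptor of the outer membrane, fell by 0.37 ± 0.09 (adjusted p = 0.0158), both in all 19 other settings. VDAC3, a pore of the outer membrane, rose by 0.28 and TIMM44, of the import motor, by 0.33 (adjusted p = 0.0321 and 0.0303), called in 12 and 13. With the anti-miR against scramble, 0 genes were called among the electron carriers, the tricarboxylic acid cycle and the carriers and import proteins, with 3, 1 and 3 at an unadjusted p under 0.05, or 21.4%, 7.69% and 25% against 16.5% of all genes. The lists were small, and no list was tested against other genes.

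The promoters of the subunits were read for letters of the motifs of NRF1 (GCGCA and GCGC with any base N between them), ETS factors (CCGGAAGT) and YY1 (AAGATGGC), on both strands, from 250 bases before to 50 after the RefSeq start. A sequence was found for 61 of 73 members. NRF1 letters were present in 15 promoters, or 24.6%, against 12.1% of 9465 genes tested and 6.28% of all 27305 promoters. ETS letters were present in 10 (16.4%, against 8.75% and 4.44%) and YY1 letters in 10 (16.4%, against 5.48% and 3.03%). Of complex II promoters 2 of 2 held NRF1 letters, of complex III 3 of 6, of complex I 6 of 29, of complex V 4 of 14 and of complex IV 0 of 10. A match is a description and not a binding site.

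These stretches of 120 bases before the start are shown because they carry such matches in subunits of complexes II, III and IV. Capitals mark the matches to NRF1 in SDHA, UQCR11 and UQCRC1, and to ETS factors in UQCR11 and COX5B. The builds are GRCh38.p14 from RefSeq, at chr5:218200-218319 (plus strand), chr19:1605463-1605582 (minus), chr3:48609647-48609766 (minus) and chr2:97645942-97646061 (plus).
SDHA upstream: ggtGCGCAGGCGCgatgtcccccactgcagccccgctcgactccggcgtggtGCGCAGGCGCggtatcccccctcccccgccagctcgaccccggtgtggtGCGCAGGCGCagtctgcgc
UQCR11 upstream: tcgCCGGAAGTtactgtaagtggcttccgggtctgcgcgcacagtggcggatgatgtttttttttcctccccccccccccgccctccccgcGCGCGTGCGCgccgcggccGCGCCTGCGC
UQCRC1 upstream: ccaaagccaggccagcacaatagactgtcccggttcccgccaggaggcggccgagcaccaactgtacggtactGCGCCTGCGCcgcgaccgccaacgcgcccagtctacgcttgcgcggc
COX5B upstream: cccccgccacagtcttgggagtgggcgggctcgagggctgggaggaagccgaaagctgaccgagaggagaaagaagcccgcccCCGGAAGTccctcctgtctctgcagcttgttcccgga

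SDHA held 3 NRF1 matches spaced 49 bases apart. With the mimic, members with NRF1 letters had a median difference of 0.06 (15 members) and those without -0.06 (46 members), and with ETS letters -0.06 (10) and without -0.03 (51). For YY1 letters the medians were -0.04 with (10) and -0.05 without (51). With the anti-miR the medians with and without the letters were -0.01 and 0.01 for NRF1, 0.09 and -0.00 for ETS factors, and 0.00 and 0.00 for YY1. These medians were not tested.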

How the data were processed

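RNA of 12 samples of TC71 cells was hybridised to Illumina BeadChips as biotin-labelled cRNA, per the labels' protocols. The deposited raw table gives, per its file headers, a mean intensity on a linear scale and a detection p-value for each of 47322 probes on each array, and 0 columns were unmatched to samples. The deposited normalized table holds intensity values of the same probes, with a median of 12 on scramble replicate 1 and 159270 values below 0 over all arrays. How the authors made it is not given in the sources used here, and it served only as an alternative.

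Raw intensities were corrected with limma 3.58.1 (R 4.3.3; normexp from detection p, offset 16), quantile normalized and converted to log2. Probes with a detection p under 0.05 on at least 4 of 12 arrays were kept (20768). Of these, 15758 had 1 gene in the platform's table, giving 11835 genes, each read by its brightest probe. A linear model with a mean per group gave 3 contrasts by lmFit and eBayes, with Benjamini-Hochberg adjustment over all genes, called at 0.05. Sequences came from RefSeq tables.

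Members, lists and tests were chosen with earlier results of these data known. Genes named were the members called, each complex's extreme members against scramble, the catalytic subunits, the isoform groups and members whose probes differ; others named for not overlapping, for lying near the threshold or for their settings were chosen after their values were seen. The fit was tested on simulated data. The alternatives tried were other background correction, normalization, detection filters, probe choice, source table, samples in the fit, a replicate block and leaving out each array. The number of arrays limits the precision.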

Additional observations from a re-analysis of the deposited data

Results flagged for a closer look

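Among 108 groups of 4 arrays that were screened, 5 held an array far from the others of its group, where chance flags about 1 in 20. ATP5PD, a stalk subunit of complex V, read 13.16 on scramble replicate 2, against 13.37 to 13.41 on the other scramble arrays. COX6B1 read 12.27 on mimic replicate 3, against 12.11 to 12.12. NDUFC2 read 5.84 on mimic replicate 1, against 5.26 to 5.33. ATP5F1B read 14.49 on anti-miR replicate 1, against 14.53 to 14.54. NDUFB1 read 6.44 on anti-miR replicate 3, against 6.56 to 6.57. These are 5 different arrays.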

How the results depend on the processing

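All complex means stayed within 1 SD of the reported difference under every setting that was run. For the mimic against scramble that SD was 0.05 to 0.12 by complex, above most of the differences, so a change of sign passed. Leaving out 1 array gave -0.04 to 0.01 for complex I and -0.02 to 0.05 for complex V. The count of members called in anti-miR against scramble was 0 throughout, leaving out each array included (0 to 0). In mimic against scramble it was 4 with no background correction and 4 with detection required on all 12 arrays, where NDUFB10 and ATP5MC3 joined NDUFA7 and NDUFB1, and 4 when every probe kept was fitted, a setting chosen after seeing the data. In mimic against anti-miR, reported as 1, it was 2 with median scaling, 3 with no background correction, 3 with detection on all 12 arrays, 2 with the replicate block and 3 with every probe kept. Leaving out each array gave 2 to 3 calls in mimic against scramble and 1 to 3 in mimic against anti-miR, with 2 without scramble replicate 1, scramble replicate 4 or anti-miR replicate 2, and 3 without mimic replicate 2 or mimic replicate 3. Samples with the same replicate number did not deviate together (correlations from -0.22 to 0.23), so the numbers were not taken as pairs, and the replicate block gave 2 calls in mimic against scramble, as reported. Median scaling moved the median of all genes by -0.05 in mimic against scramble. Probes near background, such as that of NDUFC2, limit what can be read at the dim end. The calls over all genes that the members' counts are read against moved more: in the fits behind the respiratory chain members called, mimic minus scramble, 1919 genes were called as reported, 1089 without scramble replicate 1, 1210 without mimic replicate 3 and 1176 without mimic replicate 4. In mimic minus anti-miR, 1777 became 877 without mimic replicate 1 and 957 without mimic replicate 4, and in anti-miR minus scramble, 15 became between 0 and 36 over the settings. Leaving out mimic replicate 3 ended the calls of the related genes NUBPL, SDHAF4, COA7, PPARGC1B, PDSS1, COQ9, IDH3A, SUCLG2, VDAC3 and TIMM44, whose highest adjusted p over the settings ran from 0.0634 to 0.170, and leaving out scramble replicate 1 ended all of these but PDSS1 and IDH3A.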
